A study of Mus musculus with 10 samples.

Results

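The 9 genes described here are the airway secretory and lysozyme genes Scgb1a1, Scgb3a1, Scgb3a2, Bpifa1, Muc1, Muc5b, Cyp2f2, Lyz1 and Lyz2, matched by symbol among the 31053 genes listed for each library. All 9 were found, and all 9 had at least 1 UMI (unique molecular identifier, the tag that counts an RNA molecule once) in alveolar cells. They were followed in single-cell RNA libraries of lineage-labelled epithelial cells from the distal lungs of 8-week-old mice of both sexes.

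Both lines carried Sftpc-CreERT2, a tamoxifen-inducible Cre driven by the surfactant protein C promoter of alveolar type 2 (AT2) cells, and all mice received 3 doses of tamoxifen at 0.2 mg per gram of body weight. In Sftpc-CreERT2; R26R-Confetti mice both the RFP+ and the YFP+ cells are wildtype, and each colour gave 1 library, with no time in the labels and 2 weeks in the study's methods. In Sftpc-CreERT2; Red2Kras mice, mutant cells carry RFP and their wildtype neighbours from those lungs carry YFP, and each colour gave 2 libraries at 4 days and 2 libraries at 2 weeks. All cells were sorted as EpCAM+ and RFP+ or YFP+, so a cell is defined by its label and not by its present identity. Lungs were pooled within each sample, no label states that replicates came from separate animals, and p-values therefore measure the spread between these libraries, part of which may be technical.

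Secretoglobins (Scgb1a1, Scgb3a1 and Scgb3a2) are small secreted proteins of the conducting airways, and Scgb1a1 is the defining product of club cells, which also detoxify inhaled compounds through the cytochrome P450 enzyme Cyp2f2. Bpifa1 is an antimicrobial protein of the upper airway epithelium, Muc5b is a gel-forming mucin, and Muc1 is a mucin held in the apical membrane. Lyz1 and Lyz2 encode lysozymes, which cleave bacterial cell walls. Lyz2 is known as a product of AT2 cells as well as of macrophages and neutrophils, and mouse Lyz1 is best known from Paneth cells of the gut.

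The libraries held 42012 barcodes, of which 32698 met the limits on genes, UMIs and mitochondrial share. Clusters built without the 9 members placed 29585 of these cells in alveolar states, beside 2427 immune, 336 endothelial, 233 ciliated-like and 117 mesenchymal-like cells. Median depth of the alveolar cells was between 3252 and 15804 UMIs, highest in both 2 weeks RFP libraries, and immune cells made up between 1.15% and 40.5% of a library. Within the alveolar sums, macrophage markers totalled 11.7 to 23.8 CPM (UMIs scaled to a common library total) and ciliated markers 18.2 to 106 CPM. Of the 11 macrophage genes listed, between 3 (4 days YFP replicate 1) and 11 (2 weeks RFP replicate 2) had a UMI there. Marco, 1 of them, was at 0 in 8 of 10 libraries but not in the 2 weeks RFP libraries. Replicates of 1 group differed far beyond counting noise (chi-square per degree of freedom 44.7 to 212), and replicates 1 and 2 held different states. At 4 days AT2-like cells were 80.1% of RFP replicate 1 but 2.24% of RFP replicate 2. At 2 weeks primed AT2-like cells (named from Lcn2, Lrg1, Il33, Orm1 and Ptges) were 48.6% of RFP replicate 1 and 1.88% of replicate 2, and a cluster led by Meg3 and Kng2 was 3.56% and 53.3%. Wildtype libraries were split as well. In 4 days YFP replicates 1 and 2, AT2-like cells were 85.5% and 0.953%, and primed AT2-like cells 1.83% and 87.1%. Clustering used no correction for differences between libraries, so levels by state also carry differences between the libraries that hold each state. Any 2 libraries shared at most 17 cell barcodes.

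Levels below are TMM-scaled CPM of the UMIs summed over alveolar cells of a library. In such sums, fewer cells that make an RNA and less of it per cell cannot be told apart. A 3′ UMI is counted once per molecule and was not divided by gene length, so levels are compared between libraries and not between genes.

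**Figure D1:**
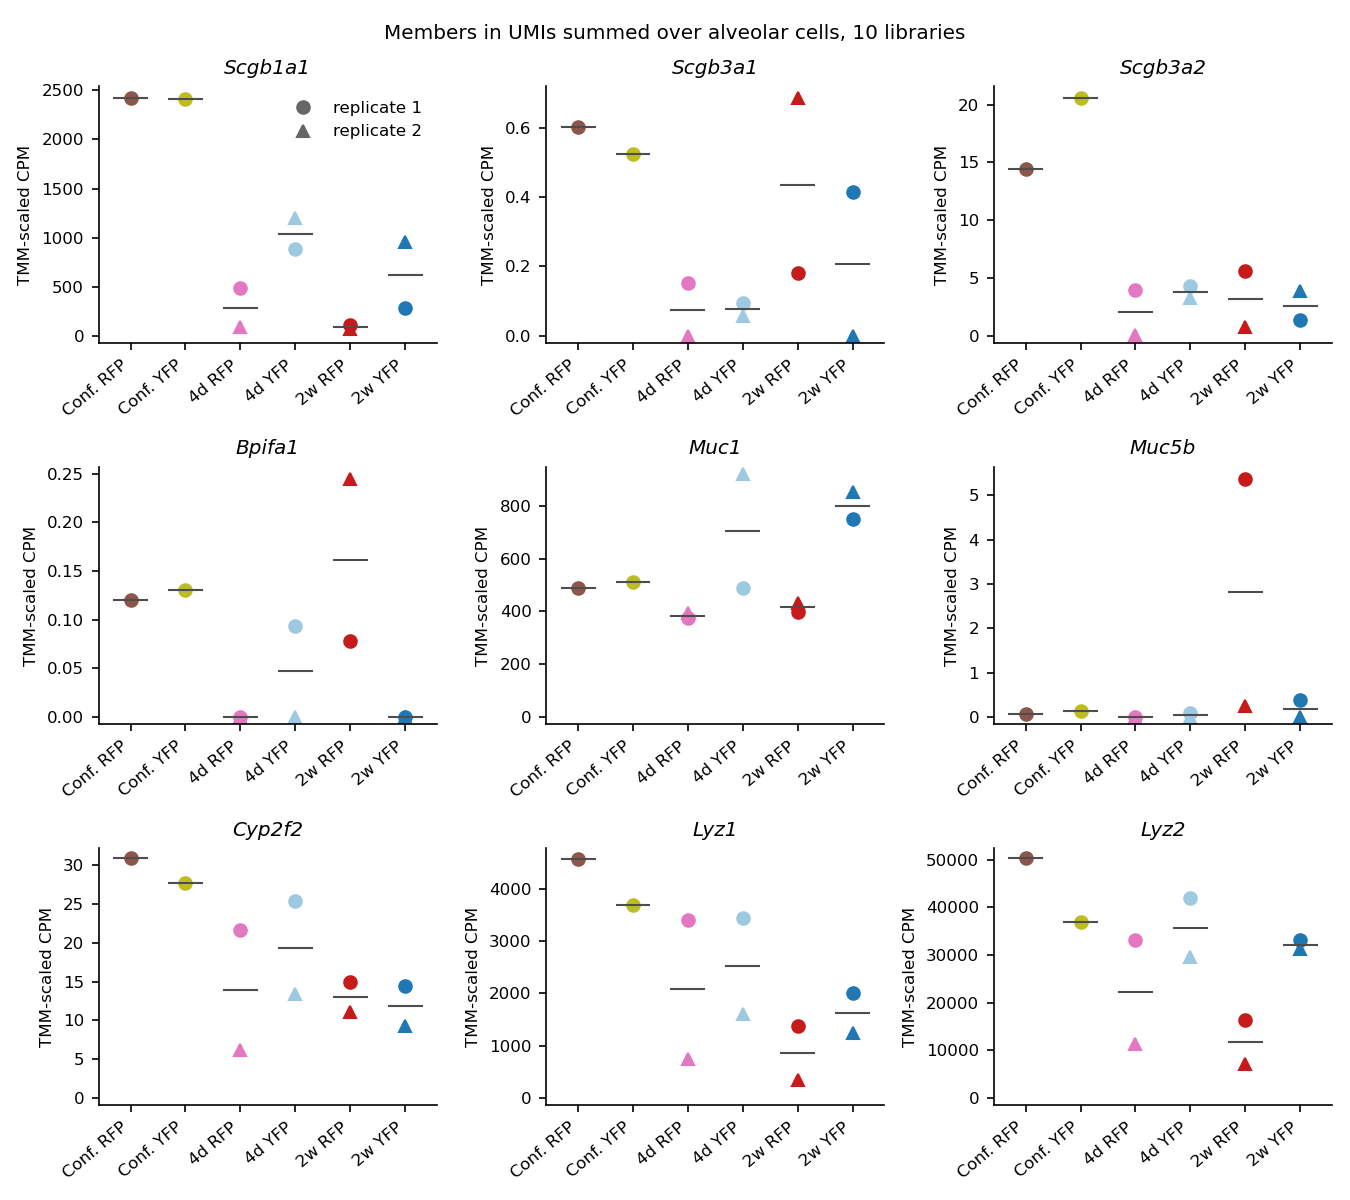
TMM-scaled CPM of each of the 9 members in the alveolar sums of 10 libraries, by group (Conf., Confetti; 4d and 2w, Red2Kras at 4 days and 2 weeks; circles, replicate 1; triangles, replicate 2; bars, group means). Scgb1a1 sat at 2410.4 and 2426 CPM in Confetti and at 68.6 and 112 CPM in the 2 weeks RFP libraries, Muc1 was lower in each RFP than in each YFP library of Red2Kras lungs, and Muc5b stood at 5.37 CPM in a single library.

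Mutant cells at 2 weeks differed from Confetti cells in 1 member, Scgb1a1, which was 26.8-fold lower. No member passed the threshold in any other comparison. Levels were lower in Red2Kras libraries than in Confetti for most members, mutant or wildtype: in the fit, 8 of 8 tested members were lower in 4 days RFP and 7 in 2 weeks RFP. Of the wildtype libraries, those of 4 days gave 7 lower and those of 2 weeks 6. Those counts share the same 2 Confetti libraries and are not independent of each other. Of all genes tested, between 47.8% and 49.1% were lower in each of these comparisons.

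The quasi-likelihood F test of edgeR tested 8 members in the fit over 6 groups (Bpifa1 had too few UMIs) and 6 members in the fit over the 8 Red2Kras libraries (neither Scgb3a1, Bpifa1 nor Muc5b was tested). For 2 weeks RFP against Confetti, 1 of 8 members had an adjusted p under 0.05, against 5.39% of all 13777 genes tested. At an unadjusted p under 0.05 there were 4 members and 4289 genes, and DESeq2 called 4 members among 2188 genes. For 2 weeks RFP against YFP, 0 of 8 passed beside 0.00726% of all genes, with 3 members and 2254 genes at an unadjusted p under 0.05, and 1 member among 463 genes called by DESeq2. For 4 days RFP against YFP, 0 of 8 passed beside 0% of all genes, with 1 member and 768 genes at an unadjusted p under 0.05, and 0 members among 82 genes called by DESeq2.

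For RFP at 2 weeks against 4 days, 0 of 8 passed beside 0% of all genes (1 member and 1530 genes at an unadjusted p under 0.05, 1 member among 118 genes by DESeq2), and for YFP at 2 weeks against 4 days 0 of 8 passed beside 0% of all genes (0 members and 214 genes unadjusted, 0 members among 14 genes by DESeq2). Against Confetti, 0 of 8 members passed in 4 days RFP beside 0% of all genes (2 members and 1217 genes unadjusted, 1 member among 265 genes by DESeq2). For YFP at 4 days, 0 of 8 passed beside 0.029% of all genes (0 members and 253 genes unadjusted, 0 members among 12 genes by DESeq2), and for YFP at 2 weeks 0 of 8 passed beside 0.0218% of all genes (2 members and 775 genes unadjusted, 0 members among 100 genes by DESeq2). The change of the RFP minus YFP difference between times gave 0 of 8 beside 0% of all genes (0 members and 213 genes unadjusted, 0 genes by DESeq2). With both times pooled, RFP against YFP gave 0 of 6 beside 0% of 12512 genes, with 3 members and 2677 genes at an unadjusted p under 0.05, and 2 members among 1272 genes called by DESeq2.

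Among the secretoglobins, Scgb1a1 (chr19:9083636-9087958, minus strand, 3 exons, GRCm38) differed most between Confetti and mutant cells at 2 weeks. Confetti RFP held 2426 CPM and Confetti YFP 2410.4 CPM. At 4 days, RFP libraries held 487 and 88.3 CPM, whereas YFP libraries held 882 and 1199.8 CPM. At 2 weeks, RFP libraries held 112 and 68.6 CPM, whereas YFP libraries held 285 and 954 CPM.

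Both Confetti libraries were higher than every Red2Kras library, and within each time both RFP libraries were lower than both YFP libraries. Ordered by mean, the groups ran from Confetti through 4 days YFP, 2 weeks YFP and 4 days RFP to 2 weeks RFP, and from 4 days YFP downward each group overlapped the next. The fall in 2 weeks RFP against Confetti was -4.74 ± 0.917 (log2 fold change ± SE, adjusted p = 0.0425). It was called in 8 of the 19 alternative settings, over which the difference ran from -5.16 to -1.68 and the adjusted p up to 0.314. Leaving out 2 weeks RFP replicate 2 raised it to 0.214.

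Other differences of Scgb1a1 did not pass. RFP against YFP was -2.78 ± 0.838 at 2 weeks (adjusted p = 0.216). It was -1.85 ± 0.810 at 4 days (adjusted p = 0.889) and -2.33 ± 0.581 over both times (adjusted p = 0.0896), where 1 of 16 pairs of an RFP and a YFP library ran the other way. Against Confetti, 4 days RFP was -3.07 ± 0.848 (adjusted p = 0.498) and 2 weeks YFP -1.97 ± 0.813 (adjusted p = 0.764). The 4 days RFP difference from Confetti turned to 0.58 when all cells past the filters were summed and to 0.88 when all barcodes were.

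In single cells, Scgb1a1 UMIs were held by few cells. Of 29585 alveolar cells, 12853 had at least 1 Scgb1a1 UMI but 242 had 50 or more, the highest 8406, and the top 1% of cells held 71.2% of its UMIs. Over all 32698 filtered cells, 107 had at least 10% of their UMIs from Scgb1a1, and these held 92.2% of all Scgb1a1 UMIs. They were found in every library, 4 to 21 cells in each, and fell in several classes: 43 in the ciliated-like, 35 in the alveolar, 19 in the mesenchymal-like and 10 in the immune class. In the cell of highest share, 82.8% of UMIs were from Scgb1a1.

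The 72 such cells outside the alveolar class carried the other airway members as well. Cyp2f2 was found in 100% of them and Scgb3a2 in 94.4%, Scgb3a1 in 25% and Muc5b in 23.6%, whereas Bpifa1 was found in 5.56%. Lyz2 stood at 1191 CPM in them, against 24617 CPM in all alveolar cells, and Lyz1 at 21.3 against 1937 CPM. The 35 alveolar-class cells of this kind held 48.3% of the Scgb1a1 UMIs in the alveolar sums. Leaving out the 242 alveolar cells of 50 or more Scgb1a1 UMIs, cells picked by this gene and after the data were seen, gave -4.17 in 2 weeks RFP against Confetti (adjusted p = 0.0182), with 748 of 13753 genes called.

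Free RNA from such cells can give UMIs to any droplet, and the immune cells of the same libraries, which should not make Scgb1a1, served as background. Unless stated, this background includes the 10 immune-class cells with at least 10% of their UMIs from Scgb1a1, which can raise it. Each cell was thinned to 2000 UMIs so that depths matched. In Confetti RFP, 44.6% of 3804 alveolar cells (95% Clopper-Pearson interval 43.0 to 46.2%) and 36.4% of 77 immune cells (25.7 to 48.1%) had a Scgb1a1 UMI, and in Confetti YFP 52.8% and 38.5%. In 2 weeks RFP replicate 1 the shares were 7.89% of alveolar cells (7.08 to 8.76%) and 12% of immune cells (7.27 to 18.3%), and in replicate 2 they were 7.69% and 11.9%. The share of immune cells with a Scgb1a1 UMI was thus also lower in 2 weeks RFP than in Confetti. The alveolar share of mutant cells at 2 weeks lay at or under that of immune cells, cells of high Scgb1a1 included. In replicate 2 its interval (6.72 to 8.74%) was wholly under that of immune cells (9.65 to 14.5%). Whether this would remain without the immune-class cells of high Scgb1a1 was not tested.

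In 4 days RFP the alveolar share was 18.2% and 11.9%, beside 18.2% and 13.6% in immune cells. In 4 days YFP it was 38.5% and 20.4%, beside 36.3% and 13.6%. All 4 of those pairs of intervals overlapped, as they did in Confetti. In 2 weeks YFP the alveolar shares of 20.8% (19.6 to 22.1%) and 13.8% (11.7 to 16.1%) were above immune shares of 11.5% (7.08 to 17.4%) and 6.64% (4.92 to 8.73%), the only libraries in which the alveolar interval lay wholly above the immune one. Before thinning, 34.5% and 29.1% of alveolar cells in the 2 weeks RFP libraries had a Scgb1a1 UMI, these cells being the deepest. The intervals cover counting error only.

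With each cell capped at 9 Scgb1a1 UMIs, so that rare high cells did not decide the sum, alveolar cells held 529 and 603 CPM in Confetti RFP and YFP and 38.3 and 37.2 CPM in 2 weeks RFP. Immune cells held 328 and 315 CPM in the same Confetti libraries and 71.7 and 59.2 CPM in 2 weeks RFP. The capped level of the immune cells was lower in each 2 weeks RFP library than in each Confetti library, as in the alveolar cells. The list of ciliated markers moved likewise within the alveolar sums, from 97.9 and 106 CPM in Confetti to 31.9 and 18.2 CPM in 2 weeks RFP. The part of either in the difference called for Scgb1a1 was not tested.

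**Figure D2:**
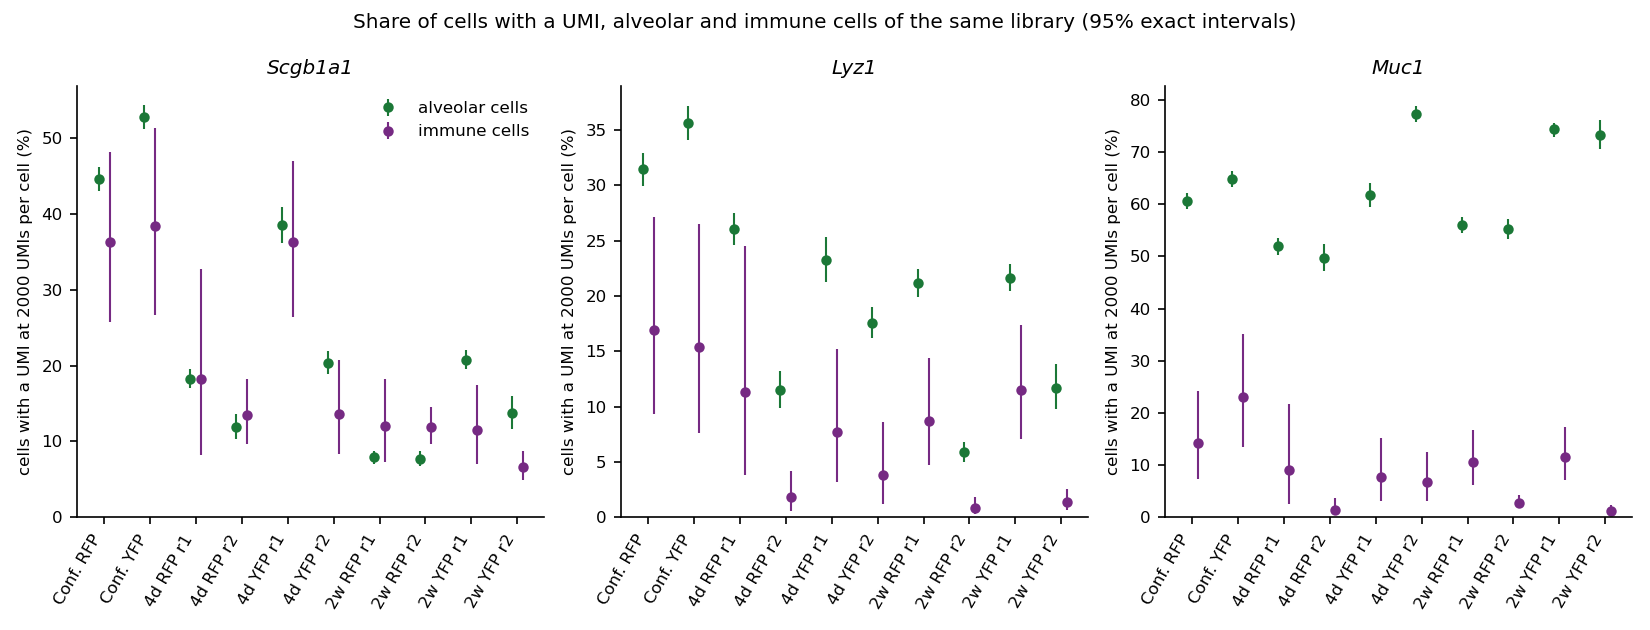
Share of alveolar (green) and immune (purple) cells with at least 1 UMI of Scgb1a1, Lyz1 or Muc1, each cell thinned to 2000 UMIs, per library with exact 95% intervals. For Scgb1a1 the intervals of both kinds of cell overlap in 7 of 10 libraries, the alveolar share is above in the 2 weeks YFP libraries and below in 2 weeks RFP replicate 2, whereas for Muc1 the alveolar share is higher throughout. The immune cells include those of high Scgb1a1.

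Scgb3a2, a secretoglobin of distal airways, was low. It stood at 14.5 and 20.6 CPM in Confetti RFP and YFP. At 4 days it stood at 3.94 and 0.116 CPM in RFP (78 UMIs and 1 UMI) and at 4.32 and 3.32 CPM in YFP. At 2 weeks it stood at 5.64 and 0.808 CPM in RFP and at 1.36 and 3.85 CPM in YFP. Both Confetti libraries were above all 8 others, and the Red2Kras groups overlapped throughout. Differences from Confetti were -2.96 ± 1.16 in 4 days RFP (adjusted p = 0.540) and -2.84 ± 1.19 in 2 weeks YFP (adjusted p = 0.764).

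Few cells made up these levels. Of 1264 Scgb3a2 UMIs in alveolar cells, 10 cells held 60.6%. After thinning, 0.460% of alveolar cells (0.386 to 0.544%) had a Scgb3a2 UMI and 0.577% of immune cells (0.316 to 0.966%), intervals that overlapped over all libraries together. With each cell capped at 9 UMIs, Scgb3a2 stood at 9.51 and 11.4 CPM in the alveolar cells of Confetti RFP and YFP and at 0 in their 77 and 65 immune cells. In both Confetti libraries, 4 days replicate 1 of either colour and 2 weeks YFP replicate 2 the capped level was above that of immune cells, and in the other 5 libraries it was below. The immune cells of both comparisons include the 10 of high Scgb1a1, a kind in which Scgb3a2 was common. These values therefore do not compare alveolar cells with stray RNA alone.

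Scgb3a1 (chr11:49663610-49665118, plus strand), a secretoglobin of larger airways, gave 76 UMIs in all alveolar cells together. Its level was 0.603 and 0.523 CPM in Confetti, 0.152 and 0 CPM in 4 days RFP. YFP cells held 0.0940 and 0.0582 CPM at 4 days. It was 0.182 and 0.686 CPM in 2 weeks RFP and 0.415 and 0 CPM in 2 weeks YFP. Bpifa1 (chr2:154142880-154149219, plus strand) gave 21 UMIs and was at 0 in 5 of 10 libraries, among them all of 4 days RFP and of 2 weeks YFP. A count of 0 over the 1009 cells of 2 weeks YFP replicate 2 allows a share of up to 0.297% of cells with a UMI (3 counts of the total). In the immune class, 5 cells held 99.7% of 4649 Scgb3a1 UMIs and 100% of 1279 Bpifa1 UMIs.

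Cyp2f2 (chr7:27119909-27133660, plus strand, 10 exons) was higher in Confetti than in any Red2Kras library. Confetti RFP and YFP held 31.0 and 27.8 CPM. At 4 days, RFP libraries held 21.7 and 6.15 CPM, and YFP libraries 25.4 and 13.3 CPM. At 2 weeks, RFP libraries held 14.98 and 11.02 CPM, and YFP libraries 14.4 and 9.29 CPM. RFP and YFP overlapped at both times. No Cyp2f2 difference passed. Against Confetti it was -1.17 ± 0.554 in 2 weeks RFP (adjusted p = 0.187) and -1.29 ± 0.564 in 2 weeks YFP (adjusted p = 0.764).

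Cyp2f2 was found in 2930 alveolar cells, of which 6 had 10 or more UMIs. Thinned to 2000 UMIs, 3.48% of alveolar cells (3.27 to 3.70%) had a Cyp2f2 UMI against 0.577% of immune cells (0.316 to 0.966%), and the alveolar share was the higher in all 10 libraries. The level capped at 9 UMIs a cell was the higher in 9, whereas in 4 days RFP replicate 2 it was 6.38 CPM in alveolar and 9.02 CPM in immune cells. These immune values include immune-class cells of high Scgb1a1, a kind in which Cyp2f2 was found, whereas those that follow leave them out. In the 16732 alveolar cells that had no Scgb1a1 UMI, Cyp2f2 still stood at 14.0 CPM, against 1.79 CPM in immune cells under 10% Scgb1a1. Per 1000 Scgb1a1 UMIs, the 107 cells of high Scgb1a1 held 2.20 Cyp2f2 UMIs, such immune cells 14.9 and alveolar cells of 1 to 9 Scgb1a1 UMIs 61.2. These groups were chosen by Scgb1a1 itself, which by itself sets their ratios apart. The ratios therefore describe and do not test where the Cyp2f2 UMIs came from.

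Of the mucins, Muc1 (chr3:89229057-89233381, plus strand, 7 exons) was lower in mutant cells than in their wildtype neighbours. Confetti RFP and YFP held 488 and 510.5 CPM. At 4 days, RFP libraries held 374 and 393 CPM, whereas YFP libraries held 488 and 919.6 CPM. At 2 weeks, RFP libraries held 399 and 432 CPM, whereas YFP libraries held 749 and 851 CPM. All 4 RFP libraries were below all 4 YFP libraries and below both Confetti libraries, and both 2 weeks YFP libraries were above Confetti.

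Over both times Muc1 was 399 ± 24.2 CPM in RFP and 752 ± 189 CPM in YFP (mean ± SD, n = 4 libraries each), a difference of -0.93 ± 0.228 that missed the threshold (adjusted p = 0.0896, lower in 16 of 16 pairs). The adjusted p was between 0.00402 and 0.608 over 17 alternatives, 3 of which passed. One of these was the fit with the replicate number as a block, at -0.90 (adjusted p = 0.0387), in which 879 genes were called in place of 0. Each time by itself gave -0.88 ± 0.347 at 4 days (adjusted p = 0.862) and -0.95 ± 0.347 at 2 weeks (adjusted p = 0.259), and the difference between those values was -0.07 ± 0.487 (adjusted p = 1.000). Against Confetti, 2 weeks YFP was 0.68 ± 0.346 higher (adjusted p = 0.764).

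Muc1 was found in most alveolar cells and far above background. After thinning, 62.5% of alveolar cells and 4.70% of immune cells had a Muc1 UMI, and the alveolar share was between 49.8% in 4 days RFP replicate 2 and 77.2% in 4 days YFP replicate 2. No cell was a source of its own, since the top 1% of cells held 5.72% of Muc1 UMIs. Across states it stood at 714 CPM in primed AT2-like cells, at 491 CPM in AT2-like cells and at 192 CPM in DATP-like cells (damage-associated transient progenitors, marked by Krt8 and Cldn4).

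In each of 4 libraries with at least 50 DATP-like cells, all from RFP sorts, Muc1 was between 116 and 204 CPM in those cells. It was between 394 and 612 CPM in AT2-like cells over 7 libraries and between 514 and 851 CPM in primed AT2-like cells over 7. DATP-like cells made up 20.5% and 39.6% of the 2 weeks RFP libraries and 0.734% and 2.97% of the 2 weeks YFP libraries, and primed AT2-like cells made up 73.6% and 83.6% of the latter. Of the 2 weeks RFP libraries, 48.6% and 1.88% were primed AT2-like and 3.56% and 53.3% were in the cluster led by Meg3 and Kng2, in which Muc1 stood at 497 and 623 CPM. When AT2-like and primed AT2-like cells alone were summed, the pooled RFP minus YFP difference of Muc1 was -0.59 (adjusted p = 0.608). That sum held 28 AT2-like and 52 primed AT2-like cells in 2 weeks RFP replicate 2. In 4 days RFP it held 2978 and 97 such cells in replicate 1 and 32 and 682 in replicate 2. It is therefore no comparison within 1 state.

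Muc5b (chr7:141839070-141873084, plus strand, 49 exons) was near 0 in every library but 1. Confetti RFP and YFP held 1 and 2 UMIs, the 4 days RFP libraries 0 and 0, and the 4 days YFP libraries 1 and 0. The 2 weeks RFP libraries held 413 and 10 UMIs, or 5.37 and 0.245 CPM, and the 2 weeks YFP libraries 10 and 0. Against a floor of 3 UMIs over both 4 days RFP libraries (0.106 CPM), Muc5b was at least 50.9-fold higher in 2 weeks RFP replicate 1 and at least 2.32-fold higher in replicate 2. The test between those groups gave adjusted p = 0.409, and that against Confetti, which held 3 UMIs in all, adjusted p = 0.115. With 1 of 2 replicates holding nearly all UMIs, the level in mutant cells at 2 weeks rests on a single library.

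In that library Muc5b marked a subset of cells. Of its alveolar cells with 2 or more Muc5b UMIs, 52 were in the class called DATP-like, 16 were in the cluster led by Meg3 and Kng2, and 1 was cycling-like. Muc5b stood at 19.7 CPM in DATP-like cells and at 36.6 CPM in the cluster led by Meg3 and Kng2, and at 0.0633 CPM in primed AT2-like cells. No Muc5b UMI was found in 150 immune cells of this library after thinning, which allows a share of up to 2.00% (3 counts of the total), beside 0.643% of alveolar cells (0.421 to 0.941%). With each cell capped at 9 UMIs, Muc5b stood at 5.28 CPM in alveolar and 1.43 CPM in immune cells of this library. In replicate 2 it stood at 0.253 and 1.98 CPM, so the alveolar level there was not above that of immune cells. Those immune cells include any of high Scgb1a1, a kind in which Muc5b was also found. The comparison is therefore not with stray RNA alone.

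Within the class called DATP-like in 2 weeks RFP replicate 1, the 52 cells with 2 or more Muc5b UMIs were set beside the 755 with none, as a description of 1 library with no test. Dlk1, an imprinted Notch ligand, stood at 4250.4 CPM against 170.5 CPM. Lactotransferrin (Ltf) stood at 147 against 2.46 CPM, Dmbt1, a mucosal scavenger receptor, at 208 against 9.62 CPM, and Cd177 at 174 against 5.41 CPM. Lcn2, a siderophore-binding protein, stood at 6792 against 620.0 CPM. Other genes were lower: Aldh1a3, a retinaldehyde dehydrogenase, stood at 5.61 against 318 CPM, the largest difference beside Muc5b itself, and Hmga2, a chromatin protein, at 46.3 against 285 CPM. Ndrg1, one of the 8 listed DATP genes, was lower too, at 33.7 against 229 CPM. Of the other listed DATP genes, Krt8, Cldn4, Krt19, Krt7 and Clu were not among those that differed by at least 2 (log2). Meg3, which leads the cluster of Meg3 and Kng2 named above, stood at 1016 against 165 CPM and Cd38 at 179 against 14.1 CPM. Dlk1, Cd177, Meg3 and Cd38 are 4 of the 5 markers listed for another state (a Cd177 mixed state). Those markers go against the DATP-like name for these 52 cells, whereas most listed DATP genes did not differ by that much. Lyz2 differed by -0.09 (log2). These genes were picked after their values were seen, from 170 genes that differed by at least 2 on the log2 scale (5 CPM added).

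**Figure D3:**
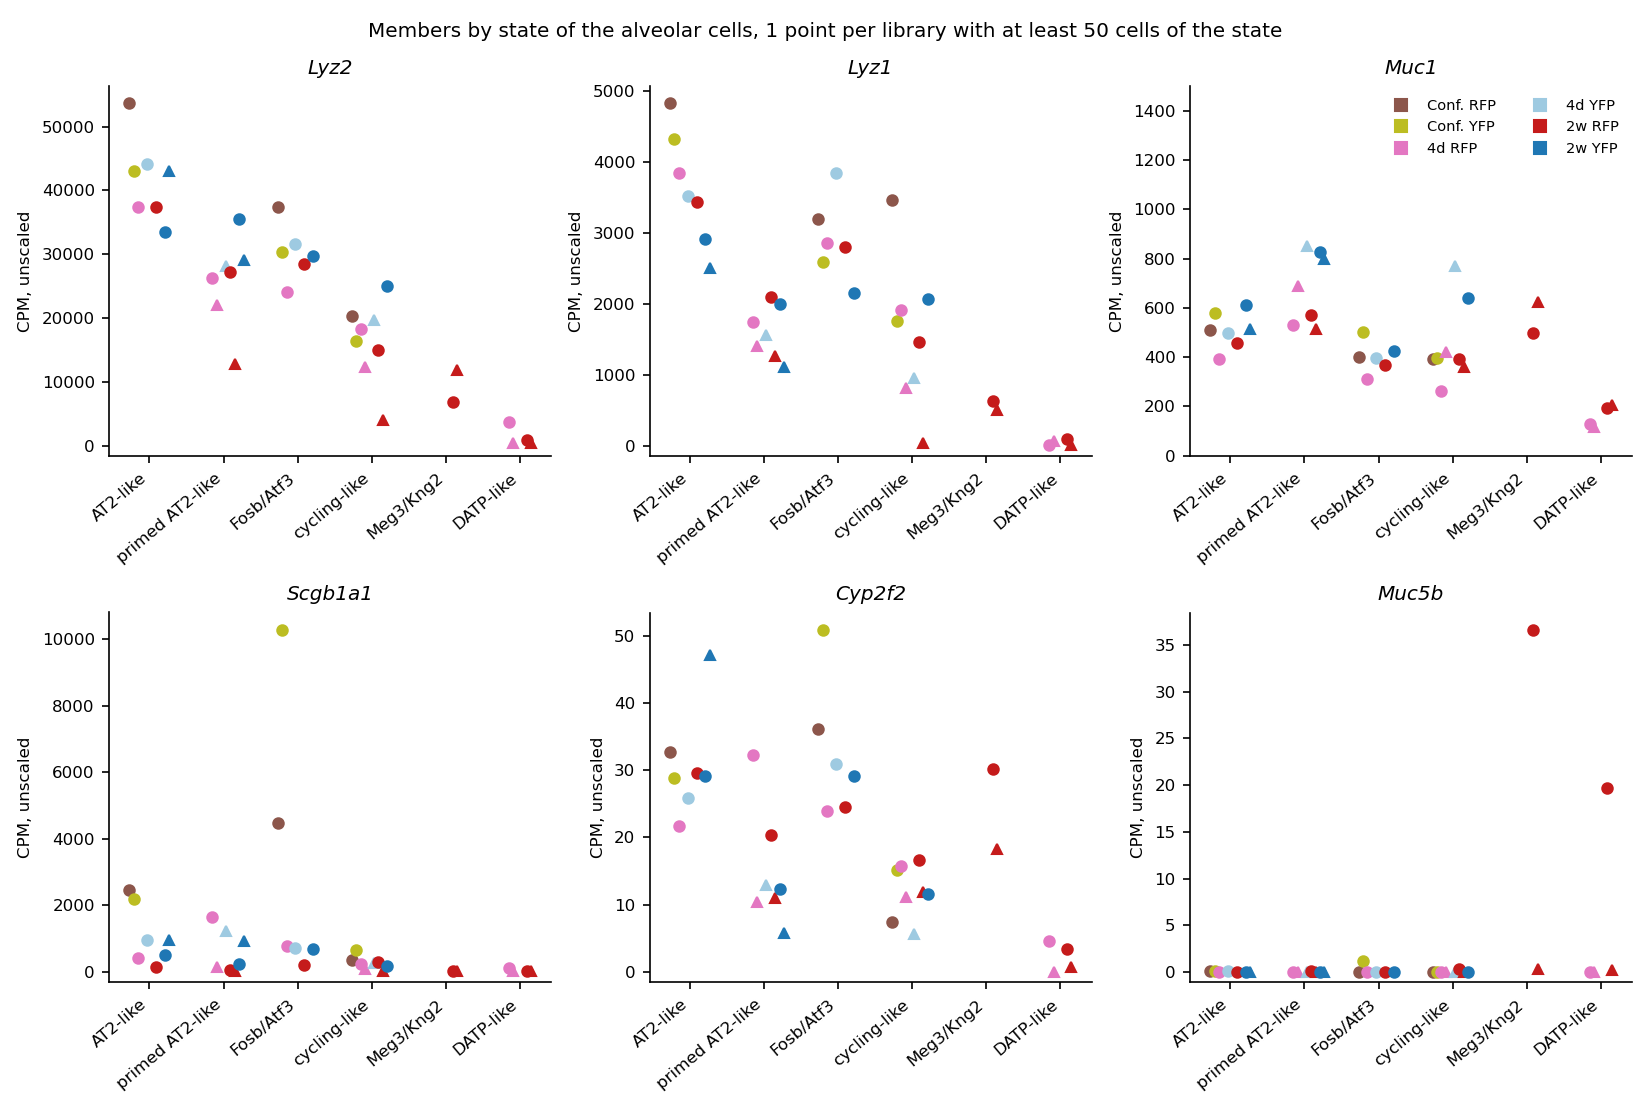
Unscaled CPM of 6 members by state of the alveolar cells, with 1 point for each library that held at least 50 cells of the state (colours, groups; circles, replicate 1; triangles, replicate 2). Lyz2 is between 33484 and 53683 CPM in AT2-like cells and between 316 and 3609.9 CPM in DATP-like cells, and Muc5b is above 2 CPM in 2 weeks RFP replicate 1 alone.

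The lysozyme genes lie side by side on chromosome 10, both on the minus strand with 4 exons each: Lyz2 at chr10:117277331-117282321 and Lyz1 at chr10:117287797-117292868 (GRCm38), 5475 bases apart. Their transcripts are 96.0% identical over 1262 aligned bases, but of 411 windows of 90 bases in the last 500 bases of each, where 3′ reads fall, 15 are shared, so a read can mostly be assigned. RefSeq promoters (GRCm38.p6, 250 bases before to 50 after the start) were found for 6 of 9 members, and those of Lyz1 and Lyz2 are 83.6% identical. The stretch from 160 to 61 bases before each start is printed because the pair of genes, so alike upstream, behaved differently from cell to cell. Each reads 5′ to 3′ on the minus strand (chr10:117282333-117282432 and chr10:117292929-117293028), counted from the RefSeq starts, of which that of Lyz2 lies inside the gene as placed above, with capitals on CAAGTG, letters recognised by the lung transcription factor NKX2-1.
Lyz2: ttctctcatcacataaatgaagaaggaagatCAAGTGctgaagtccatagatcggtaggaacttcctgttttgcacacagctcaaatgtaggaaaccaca
Lyz1: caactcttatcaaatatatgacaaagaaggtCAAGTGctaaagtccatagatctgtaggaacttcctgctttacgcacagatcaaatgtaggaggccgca

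Both stretches hold CAAGTG at the same place, 129 bases before the start, and are 82.8% identical. Both strands of each promoter were searched. CAAGTG occurs once in each of these promoters, in 13.6% of 32851 promoters of the same length, and once also in those of Cyp2f2 and Scgb3a1. The TATA box letters TATAAA were found before Bpifa1 and Muc1 only, 29 and 31 bases before the start, and occur in 13.6% of promoters. The matches describe these windows and do not show binding.

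Lyz2 was lower in mutant than in wildtype cells at 2 weeks, a difference that did not pass, and overlapped between them at 4 days. Confetti RFP and YFP held 50271 and 36925 CPM. At 4 days, RFP libraries held 33027 and 11335 CPM, and YFP libraries 41978 and 29499 CPM. At 2 weeks, RFP libraries held 16394 and 7059 CPM, whereas YFP libraries held 33139 and 31207 CPM. Both 2 weeks RFP libraries were below both 2 weeks YFP libraries and below Confetti, whereas at 4 days RFP replicate 1 was above YFP replicate 2. Between libraries of the same number and time, RFP was always the lower.

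None of the Lyz2 differences passed: 2 weeks RFP was -1.88 ± 0.605 against Confetti (adjusted p = 0.0867) and -1.46 ± 0.598 against YFP (adjusted p = 0.291), and RFP against YFP over both times was -1.09 ± 0.421 (adjusted p = 0.185). The difference from Confetti was called in 4 of 19 alternatives. Immune cells express Lyz2 themselves and are no background for it. They held 18911 CPM when cells of high Scgb1a1 were left out.

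Lyz2 differed between states, which also differ in the libraries that hold them. Over all libraries it stood at 44240 CPM in AT2-like, 29349 CPM in primed AT2-like and 626 CPM in DATP-like cells. AT2-like cells held at least 33484 CPM in each of 7 libraries, and DATP-like cells at most 3609.9 CPM in each of 4. Thinned to 2000 UMIs, alveolar cells at 0 Lyz2 were 17.0% and 43.6% of the 2 weeks RFP libraries and 1.18% and 34.1% of the 4 days RFP libraries. They were at most 0.640% in both Confetti libraries, both 4 days YFP libraries and 2 weeks YFP replicate 1, and 5.05% in 2 weeks YFP replicate 2.

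Lyz1 showed an order like that of Lyz2 in the sums. Confetti RFP and YFP held 4570.1 and 3690.2 CPM. At 4 days, RFP libraries held 3402 and 748 CPM, and YFP libraries 3447 and 1602 CPM. At 2 weeks, RFP libraries held 1371 and 338 CPM, and YFP libraries 2013 and 1233 CPM. All Red2Kras libraries were below both Confetti libraries, and RFP and YFP overlapped at both times. Between libraries of the same number and time, RFP was always the lower, though no label states that these are pairs. The largest difference was -2.27 ± 0.860 in 2 weeks RFP against Confetti (adjusted p = 0.122).

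In single cells Lyz1 was not seen in most cells and high in some. Among AT2-like cells of Confetti RFP, thinned to 2000 UMIs, 68.3% had 0 Lyz1 UMIs whereas 15.2% had 20 or more and the highest had 166. In Confetti YFP, 64.1% had 0 and 15.3% had 20 or more. Of the cells between, those of 1 to 4 UMIs were 11.4% and 14.9%, and those of 5 to 19 UMIs 5.12% and 5.66%. Of alveolar cells with 50 or more Lyz2 UMIs, 70.4% in Confetti RFP and 68.0% in Confetti YFP had no Lyz1 UMI. Alveolar cells at 0 Lyz1 had a median of 110 and 88 Lyz2 UMIs in Confetti RFP and YFP. That median was 17 in 4 days RFP replicate 2 and 1 in 2 weeks RFP replicate 2.

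Every library held cells of each kind, with 64.4% to 94.3% of alveolar cells at 0, 3.36% to 15.1% at 1 to 4 and 1.23% to 14.8% at 20 or more. In 7 of 10 libraries more alveolar cells had 1 to 4 UMIs than 20 or more, such as 9.99% against 5.89% in 2 weeks RFP replicate 1. The share at 20 or more was 14.8% and 14.7% in Confetti. In RFP cells it was 13.2% and 3.36% at 4 days and 5.89% and 1.23% at 2 weeks. In YFP cells it was 11.8% and 5.75% at 4 days and 7.72% and 3.47% at 2 weeks. All 8 Red2Kras libraries were below both Confetti libraries, and the library numbered 2 was the lower in each of the 4 groups. Of all immune cells 0.330% had 20 or more and 3.46% had 1 to 4. In Confetti RFP and YFP, 16.9% and 18.5% of immune cells had 1 to 4, beside 11.2% and 15.1% of alveolar cells, so in those libraries alveolar cells of 1 to 4 UMIs were not above background.

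Cells with 5 or more Lyz1 UMIs were then set beside cells with none. In AT2-like cells of the 4 libraries with enough of both (705 against 2374 cells in Confetti RFP), Lyz1 differed by 9.24 (log2, mean over libraries). Of 4779 genes with at least 20 CPM, no other gene reached a mean difference of 0.6 with at least 0.5 the same way in each library. A mean difference of at least 0.5 was reached by 7 other genes, whether or not in the same direction in each library. The largest of these was that of Hbb-bs, a haemoglobin gene, at -1.62, and Lyz2 was among them at -0.57 (-0.65 to -0.54), lower by over 0.5 in each library. In primed AT2-like cells of 5 other libraries, 4465 genes gave the same outcome at the limit of 0.6, and 10 other genes reached a mean of 0.5. Lyz1 stood at 9.03, Scgb1a1 had the largest other mean at -1.52, and Lyz2 stood at -0.41 (-0.58 to -0.28).

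In Confetti RFP, AT2-like cells with 5 or more Lyz1 UMIs had a median of 75 Lyz2 UMIs against 113 in cells with none, and in Confetti YFP 61 against 90. Over all alveolar cells, whatever their state, the order was the reverse in 3 RFP libraries, with 30 against 17 in 4 days replicate 2 and 39 against 30 and 30 against 1 in 2 weeks replicates 1 and 2. In AT2-like cells the summed UMIs of both genes were closer, 123 with Lyz1 and 113 without, and in Confetti YFP 100 and 90. Since the thinned total is fixed at 2000, a cell with more of one RNA has room for fewer of others. The AT2-like cells with 5 or more had a median of 41 Lyz1 UMIs in Confetti RFP and 34.5 in Confetti YFP. The part of this limit in the Lyz2 difference was not tested. The cells were also chosen by Lyz1 itself, so the Lyz2 values describe and do not test.

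**Figure D4:**
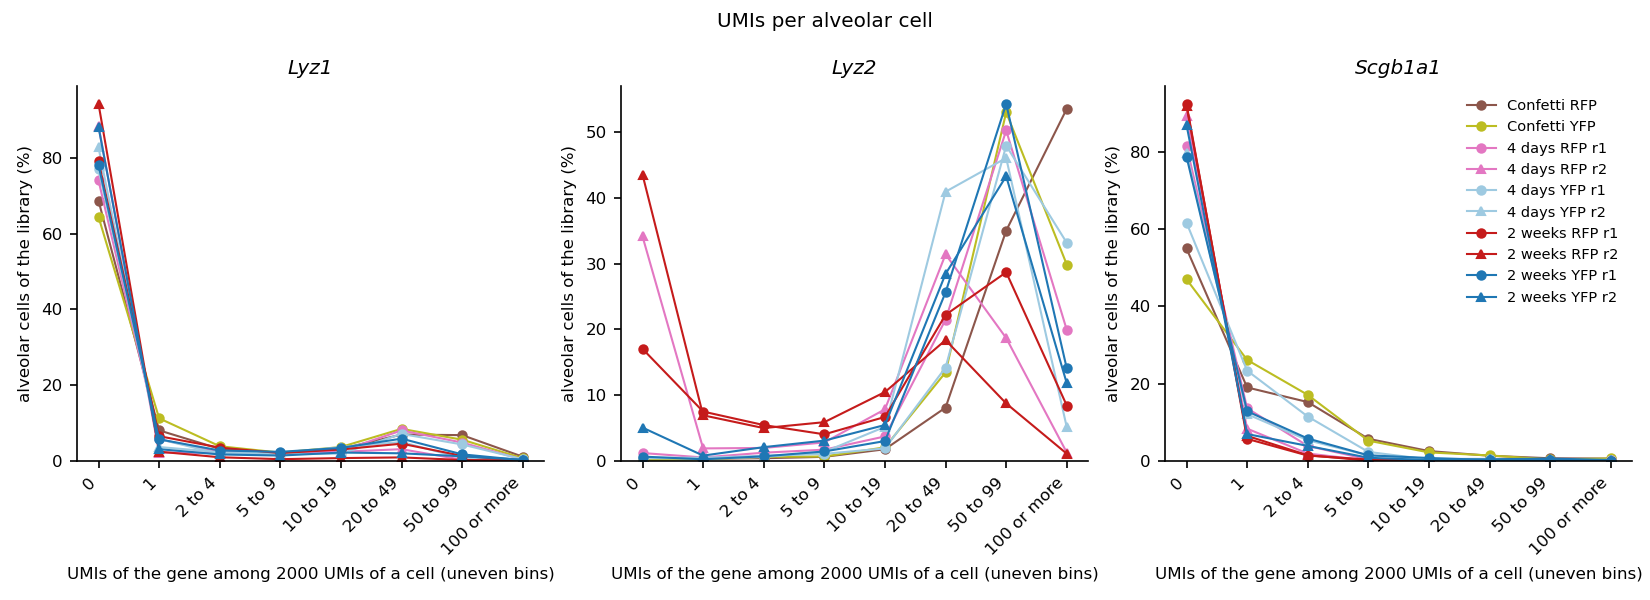
Share of alveolar cells of each library by the number of UMIs of Lyz1, Lyz2 and Scgb1a1 among 2000 UMIs of the cell (uneven bins; lines, libraries; circles, replicate 1; triangles, replicate 2). Lyz1 has most cells at 0 and more at 20 to 49 than at 5 to 9 in all 10 libraries, bins that differ in width, Lyz2 has 17.0% to 43.6% of cells at 0 in 3 RFP libraries, and Scgb1a1 has at most 1.39% of cells at 20 to 49.

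Other genes of the airway programme were followed from lists. Of 13 other club cell genes, 10 were tested in 2 weeks RFP against Confetti, where 0 fell and 1 rose: Gsto1, a glutathione transferase, by 6.35 ± 1.30 (log2, adjusted p = 0.0441). The median of the list was -0.52, against 0.03 over all genes tested. Of 12 goblet and mucous cell genes, 6 were tested and Foxa3, a transcription factor of goblet cells, rose by 3.39 ± 0.713 (adjusted p = 0.0441). Of those 6 the fitted difference was above 0 in 3 and below 0 in 3, so the list's median of 1.69 (1.58 with Agr2 and Tff1, at 0 in Confetti, set to their lower bounds) lies between members that went both ways. Spdef, a transcription factor of goblet cells, stood at 1.03 and 1.83 CPM in Confetti and at 1.05 and 0.759 CPM in 2 weeks RFP. Fcgbp stood at 1.75 and 2.68 CPM in Confetti and at 1.33 and 0.734 CPM in 2 weeks RFP. Tff1, a trefoil peptide of mucous cells, stood at 52.8 and 26.8 CPM in 2 weeks RFP and at 0 in Confetti (adjusted p = 0.0604). In 2 weeks YFP it stood at 0.905 and 47.9 CPM, so mutant and wildtype libraries overlapped, through 1 YFP library alone. Those 3 genes were named after their values were seen.

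Of 12 antimicrobial secreted proteins, 6 were tested and Pglyrp1, a peptidoglycan-binding protein, rose by 4.56 ± 0.899 (adjusted p = 0.0426), with a median of 2.85 for the list, or 2.67 with Ltf and Dmbt1 at their bounds. Ltf had 270 UMIs in 2 weeks RFP replicate 1 and 0 in replicate 2. In wildtype cells at 2 weeks the median against Confetti was 2.47, with 6 of 6 genes above 0 and 0 past the threshold. That median includes fitted values of Ltf and Dmbt1, not set to bounds, so it is not to be set beside 2.67. In the 2 weeks YFP libraries Ltf had 9 and 0 UMIs and Dmbt1 32 and 0. Pglyrp1 stood at 14.5 and 12.6 CPM in Confetti, at 166 and 70.5 CPM in 2 weeks YFP and at 448 and 190.1 CPM in 2 weeks RFP. Of 10 other mucins 2 were tested and 0 passed, and of 13 transcription factors of lung secretory cells 12 were tested and Foxa3 passed. In the same comparison 2 of 10 AT2 genes fell, the transporter Abca3 with -1.43 ± 0.327 (adjusted p = 0.0471) and the transcription factor Etv5 with -2.15 ± 0.435 (adjusted p = 0.0441). Of 8 DATP genes 5 rose: Cldn4, Clu, Krt7 and Krt19, the last by 3.08 ± 0.593 (adjusted p = 0.0425), and Krt8 by 2.15 ± 0.355 (adjusted p = 0.0365). All 5 of the Cd177 mixed genes rose, Dlk1, Ctse and Cd177 from 0 UMIs in Confetti, Meg3 by 7.07 ± 1.15 (adjusted p = 0.0354), and Cd38. The study described this mixed state from data of this series, with more of it among mutant cells at later times. The rise of its markers here is therefore not independent of how the list was made. Of 8 AT1 genes, Pdpn rose by 5.07 ± 0.590 (adjusted p = 0.0223). Of 3 mesenchymal genes tested, Bgn, a proteoglycan that also leads the cluster of Meg3 and Kng2, rose by 5.34 ± 0.597 (adjusted p = 0.0186). Of the tested immune, macrophage, endothelial, primed AT2 and cycling genes 0 passed. Of 7 ciliated genes, 5 were tested and Dynlrb2, a dynein light chain, fell, with -2.99 ± 0.509 (adjusted p = 0.0379). No gene of these lists passed in any other comparison.

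Across the 10 library sums, the genes whose log2 level was most like that of Lyz1 were Spink5 (Pearson's r = 1.00), Samd12 (r = 0.99) and Gbe1 (r = 0.99), and those most like Lyz2 were Kcne2, Mlc1 and St6galnac6 (r = 0.99 each). Muc1 was most like Scarb2, Atp6v0d1 and Gpx1 (r = 0.96 to 0.98), and Scgb1a1 most like Pi4ka, Gm15217 and Paxx (r = 0.97 to 0.99). Cyp2f2 was most like Pde4d, Gas6 and Spry1 (r = 0.97 each). Muc5b was most like Klra4, Gstm7 and Ltf (r = 0.93 to 0.96), Scgb3a2 most like Alg12, Arhgef10 and Gm15283 (r = 0.92 to 0.94) and Scgb3a1 most like AC163040.1, Trmt44 and Gm26870 (r = 0.91 to 0.92). Each is the best 3 of 13776 genes over 10 libraries that share group and depth, and is given as a description.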

How the data were processed

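Droplet-based single-cell RNA-seq was analysed from 10 libraries of sorted lung epithelial cells. The values are UMI counts per gene and cell, made by the authors from reads aligned to mouse GRCm38 with Cell Ranger and deposited as 1 matrix per library. The matrix headers name Cell Ranger 5.0.1, the processing notes 3.1.0. The deposited counts are not normalized.

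Cells with at least 1000 genes, at most 50000 UMIs and at most 15% mitochondrial UMIs were kept, clustered with scanpy 1.11.5 (Louvain resolution 0.8, 5000 variable genes without the 9 members, 30 principal components, 20 neighbours) and named from marker lists. An automatic doublet threshold called 30 cells and was not used. An alternative left out the 940 cells of highest Scrublet score. Alveolar UMIs were summed per library, giving 7344247 to 71397962 UMIs. On these sums, edgeR 4.0.16 ran its quasi-likelihood test (TMM, filterByExpr, R 4.3.3) over 6 groups and, for RFP against YFP over both times, over 8 libraries with time as a covariate. The Confetti level is the mean of its RFP and YFP libraries, which have no replicates of their own, so the spread comes from the Red2Kras groups. P-values were adjusted over all genes tested by the method of Benjamini and Hochberg with a threshold of 0.05. DESeq2 1.42.0 was an alternative. The edgeR step was tested on simulated counts.

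All 9 members are named. Beside them the 3 genes most correlated with each member over 10 libraries are named (log2 TMM-scaled CPM, prior count 2), and all list genes past the threshold. Some list genes that did not pass are named as well. Members and lists were chosen with earlier results of these data known. Single-cell shares used cells thinned to 2000 UMIs, leaving out shallower cells, and exact Clopper-Pearson 95% intervals. Promoter sequences are from RefSeq (GRCm38.p6) and gene positions from GENCODE annotation of GRCm38. Alternatives were RLE scaling, no filter on low counts, other sets of cells, each Red2Kras library left out in turn, either Confetti library alone, a replicate block, only the libraries compared, other thinning depths, at least 2 UMIs in place of 1, and Louvain resolution 1.5. The gene altered in the mutant cells is not reported here.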

Additional observations from a re-analysis of the deposited data

Results flagged for a closer look

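Members were compared within the 4 RFP and the 4 YFP libraries of Red2Kras lungs for a library standing far from the other 3, in 36 tests. Among like libraries chance alone flags about 1 in 20 groups. That rate need not hold here, since each set mixes 4 days and 2 weeks libraries. Scgb1a1 stood at 487 CPM in 4 days RFP replicate 1, above the other RFP libraries. Muc5b stood at 5.37 CPM in 2 weeks RFP replicate 1, the library that holds nearly all of its UMIs. Bpifa1 stood at 0.0940 CPM in 4 days YFP replicate 1, which is a single UMI beside 0 in the other YFP libraries. Where all libraries of a set but 1 are at 0, that 1 is flagged whatever its value.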

How the results depend on the processing

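Without a filter on low counts, 1 member among 485 genes was called for 4 days RFP against YFP, 2 among 1382 for 2 weeks RFP against YFP, 2 among 696 for RFP at 2 weeks against 4 days and 3 among 1925 for RFP against YFP over both times. Against Confetti it was then 3 members among 824 genes in 4 days RFP, 6 among 3241 in 2 weeks RFP, and for YFP 1 among 141 at 4 days and 3 among 534 at 2 weeks. These counts are of 20854 genes, or 20562 over both times. DESeq2 called 1, 1, 1, 4 and 2 members for 2 weeks RFP against YFP, RFP at 2 weeks against 4 days, 4 days RFP and 2 weeks RFP against Confetti, and RFP against YFP over both times, among 463, 118, 265, 2188 and 1272 genes. Fits of only the libraries compared called 4 members among 3900 of 13399 genes in 2 weeks RFP and 1 among 192 of 12253 in 2 weeks YFP against Confetti.

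For 2 weeks RFP against Confetti, 0 members were called with all cells past the quality filters, with all deposited barcodes, with AT2-like and primed AT2-like cells only, with Confetti RFP alone and with Confetti YFP alone. Over all genes these settings called 0, 1, 405, 1 and 1, in place of 743. Leaving out 1 library at a time gave 0 to 2 members among 5 to 1926 genes there, 0 to 1 among 0 to 329 for 4 days RFP against Confetti and 0 to 2 among 0 to 1435 for RFP against YFP over both times. Scgb1a1 lost its call without either 2 weeks RFP library (adjusted p = 0.0763 and 0.214), either 4 days YFP library (0.0587 and 0.0591) or either 2 weeks YFP library (0.0557 and 0.0553). The Scgb1a1 difference of 4 days RFP from Confetti turned to 0.58 with all cells past the filters and to 0.88 with all barcodes, sums that hold the airway cells outside the alveolar class.

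The replicate block gave 1 member, Muc1, for RFP against YFP over both times (-0.90, adjusted p = 0.0387), with 879 genes called in place of 0. It changed no count of members in the other comparisons within Red2Kras lungs. Comparisons with Confetti were not fitted with it. Deviations of same-numbered RFP and YFP libraries correlated by 0.494 at 4 days and 0.551 at 2 weeks, and those of the other 4 pairs of groups by 0.0133 to 0.256. No label says that a number marks shared lungs, and the pairing was not taken as given. With 2 libraries a group, replicate spread limits every test, and the intervals cover counting error only.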

Other observations

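Scgb3a1 was found in endothelial-class cells, which were left out of the alveolar sums. These 336 cells held 51 Scgb3a1 UMIs, or 31.6 CPM, in 5.36% of the cells, against 0.965 CPM in immune cells under 10% Scgb1a1. Thinned to 2000 UMIs, 2.91% of endothelial cells (95% exact interval 1.34 to 5.46%) and 0.206% of immune cells (0.0670 to 0.480%) had a Scgb3a1 UMI. Per 1000 Scgb1a1 UMIs the endothelial cells held 242 Scgb3a1 UMIs, the 107 cells of high Scgb1a1 7.76. The latter were chosen by Scgb1a1 itself, which lowers such a ratio, so this pair of values is a description only.

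Of the ciliated-like cells, 190 had under 10% of their UMIs from Scgb1a1. Cyp2f2 was found in 89.5% of these, at 830.3 CPM, and Lyz2 stood at 3005 CPM in them.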
